A study of Rattus norvegicus with 6 samples.

Results

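The genes described here are markers of pancreatic duct and of epithelia in general: the chloride channel gene Cftr, the keratins Krt7, Krt8, Krt18 and Krt19, the transcription factor gene Sox9, the adhesion gene Epcam, the mucin gene Muc1, the annexin gene Anxa4 and the osteopontin gene Spp1. They were taken by symbol from this list of 10, and 9 of them, on 12 probe sets, were found among 14506 named genes and 29214 probe sets, Sox9 being not analysed here. The study set sorted pancreatic cells, enriched for beta cells, of male Wistar rats at 2 ages side by side, with 1 array of total RNA per preparation. The day 20 group held 3 preparations from suckling pups at postnatal day 20, and the adult group held 3 from young adults of 2 months, weighing 250 to 280 g. In both groups the cells had been enriched by flow sorting on forward scatter, side scatter and autofluorescence. The series calls the cells primary cultured and gives no culture time, and the labels call the preparations biological replicates without saying how many animals went into each. All values are on the log2 scale, as the authors' normalization (RMA) left them, so a difference of 1 is a 2-fold change. Means are given with the SD over 3 arrays.

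Duct cells line the tubes that carry digestive enzymes out of the pancreas, and they secrete a bicarbonate-rich fluid in which the CFTR channel passes chloride and bicarbonate through the apical membrane. Like other simple epithelia they hold intermediate filaments built from pairs of a type I keratin (Krt18, Krt19) and a type II keratin (Krt7, Krt8). Krt7 and Krt19 are classical duct keratins, whereas Krt8, Krt18 and Epcam are also made by acinar and endocrine cells, so the list marks epithelia of the pancreas and not the duct alone.

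The preparations were not pure beta cells by their markers. Ins1 had log2 signals of 13.81 to 14.35 over the 6 arrays, and the mean of 26 acinar markers lay between 13.38 and 13.605, both close to the highest signal in the table, 14.7. Array medians ran from 6.35 to 6.39 and first quartiles from 4.91 to 4.94. No detection calls came with the values, and the lowest signal of any of the 9 genes, on the probe sets used for the tests, was 6.74. In such bulk RNA, fewer cells of a type and less RNA per cell cannot be told apart.

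Upstream sequences of the 4 genes that passed the test of age are shown because 2 of them fell and 2 rose, and so form the contrast that the values below turn on. Each is the stretch of 250 bases before the transcript start in the RefSeq table of build GRCr8, and capitals mark every match to 4 motifs, searched on both strands. The letters TATAAA stand for a TATA box. The letters GGGCGG stand for a GC box. The letters ACAATG stand for a SOX motif, and the CCAAT box is searched as its name spells it.
Cftr, GRCr8 chr4:47527379-47527628, plus strand: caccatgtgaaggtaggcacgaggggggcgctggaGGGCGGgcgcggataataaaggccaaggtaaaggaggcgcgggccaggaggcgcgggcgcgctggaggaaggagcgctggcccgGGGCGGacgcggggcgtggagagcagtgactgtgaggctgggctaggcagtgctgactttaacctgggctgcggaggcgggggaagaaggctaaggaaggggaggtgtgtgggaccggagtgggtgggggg
Muc1, GRCr8 chr2:176933500-176933749, plus strand: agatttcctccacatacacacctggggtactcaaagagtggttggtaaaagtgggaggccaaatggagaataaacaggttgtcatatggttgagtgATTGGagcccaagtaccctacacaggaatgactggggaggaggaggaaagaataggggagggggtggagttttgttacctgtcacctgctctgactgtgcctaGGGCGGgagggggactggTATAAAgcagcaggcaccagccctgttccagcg
Epcam, GRCr8 chr6:12649679-12649928, minus strand: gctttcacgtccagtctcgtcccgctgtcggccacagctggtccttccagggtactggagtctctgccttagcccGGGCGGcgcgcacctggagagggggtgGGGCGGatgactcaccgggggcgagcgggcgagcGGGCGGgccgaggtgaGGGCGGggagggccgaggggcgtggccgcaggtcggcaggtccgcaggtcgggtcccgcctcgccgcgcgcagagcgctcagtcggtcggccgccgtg
Anxa4, GRCr8 chr4:120798514-120798763, minus strand: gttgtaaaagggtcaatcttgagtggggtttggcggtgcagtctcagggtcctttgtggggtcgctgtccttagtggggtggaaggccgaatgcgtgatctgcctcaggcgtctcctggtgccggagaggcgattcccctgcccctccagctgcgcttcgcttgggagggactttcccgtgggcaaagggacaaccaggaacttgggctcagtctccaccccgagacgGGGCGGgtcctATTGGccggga
A GC box match was present in all 4 of these sequences, and in 5 of the 7 genes with an entry in the table (Krt18 in addition), against 30.5% of all 33469 promoters in the same window. The Epcam sequence held 4 GC box matches and 75.6% G and C, against a median of 51.2% over all promoters, and that of Cftr held 2 and 69.2%. Muc1 alone of the 4 had a TATA box match, 33 to 28 bases before its start, which 12.9% of all promoters have somewhere in the window. In all, 3 of 7 genes held a TATA box match (Krt8, with 2 overlapping matches on opposite strands, Muc1 and Spp1), 2 held a CCAAT box match (Muc1 and Anxa4; 34% of all promoters) and 1 a SOX motif match (Spp1; 11.1%). The genes that fell and those that rose were thus not set apart by GC box matches, and a match of letters is not shown to be a site.

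Cftr and Muc1 were lower in adult than in day 20 preparations, Epcam and Anxa4 were higher, and the 4 keratins and Spp1 did not pass. These 4 of 9 genes had an adjusted p under 0.05 in limma over all 14506 genes, where 22.7% of genes passed, 11.8% as higher and 10.9% as lower in adult. The same 4 genes were those whose 3 adult and 3 day 20 values did not overlap, as was the case for 39.6% of all genes. The median log2 difference, adult minus day 20, was 0.026 over the 9 genes and 0.012 over all genes. The median size of the difference, without its sign, was 0.32 over the 9 genes and 0.16 over all. The count fell to 2, Cftr and Muc1, without adult replicate 1 (17.8% of all genes called), adult replicate 2 (17.8%), day 20 replicate 1 (15.7%) or day 20 replicate 2 (14.9%). It was 3 without adult replicate 3 (16.6%), with Epcam, and 4 without day 20 replicate 3 (20.2%), with Anxa4 and Spp1.

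**Figure D1:**
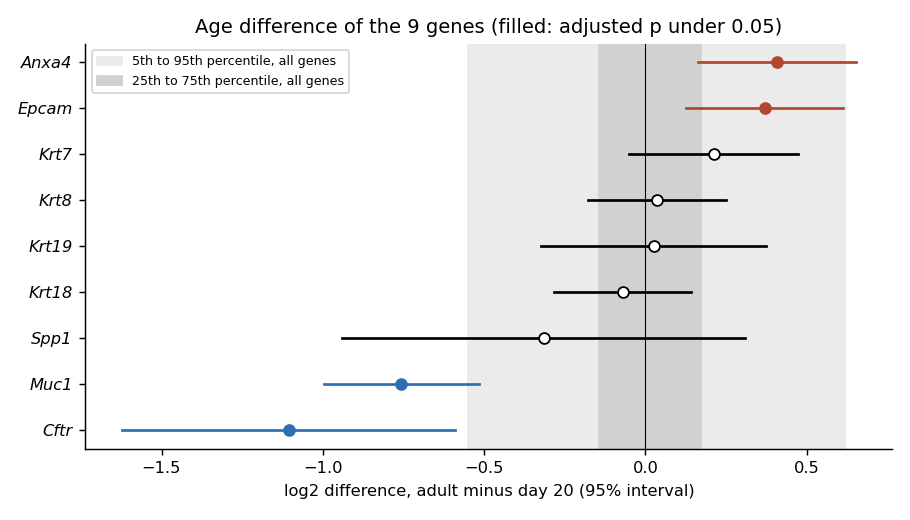
Log2 difference of each gene, adult minus day 20 (x axis), with its 95% interval from limma, in order of size (y axis). Filled points passed an adjusted p of 0.05, and grey bands show the spread of differences over all genes. Cftr and Muc1 lie left of the wider band, which runs from the percentile 5 to the percentile 95 of all genes, at -1.11 and -0.76, while Epcam and Anxa4 lie inside it at 0.37 and 0.41.

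Cftr had adult log2 signals of 7.76, 8.01 and 7.85 and day 20 signals of 9.44, 9.12 and 8.39. All 3 day 20 arrays were above all adult arrays, but day 20 replicate 3 was nearer to the adult arrays than to the other two. The level was 2.15-fold higher at day 20 (7.88 ± 0.13 in adult against 8.98 ± 0.54, SD, n = 3), a log2 difference of -1.11 with a standard error of 0.23 and an adjusted p of 0.00915 in limma. The 95% interval runs from 1.504-fold to 3.08-fold. When any 1 of the 6 arrays was dropped, the difference stayed between -1.40 and -0.88 and passed each time (adjusted p up to 0.0376). Its size was thus the largest of the 9 genes, and its spread within day 20 was exceeded only by that of Spp1.

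Muc1, a membrane mucin of the apical surface, had adult signals of 10.46, 10.54 and 10.75 and day 20 signals of 11.39, 11.42 and 11.21. The 2 groups were apart by more than the spread within either. The gene was 1.69-fold higher at day 20 (10.58 ± 0.15 in adult against 11.34 ± 0.11, n = 3, log2 difference -0.76, standard error 0.11, adjusted p = 0.0016). Left-out arrays moved the difference between -0.84 and -0.70, with a call each time (adjusted p up to 0.01). Muc1 had the smallest adjusted p of the 9.

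Spp1 encodes osteopontin, a secreted glycoprotein that duct cells and macrophages make. Its adult signals were 8.47, 8.68 and 8.405, and its day 20 signals were 9.44, 8.95 and 8.12. The first 2 day 20 arrays were above all adult arrays and day 20 replicate 3 was below all of them, so the groups overlapped. The difference of -0.32 on the log2 scale had a 95% interval of -0.94 to 0.31 and did not pass (adjusted p = 0.485). Without day 20 replicate 3 it was -0.67 and passed (adjusted p = 0.0197), and without day 20 replicate 1 it was -0.014 (adjusted p = 0.976). Single arrays thus set the size of this difference.

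Day 20 replicate 3 had the lowest day 20 signal for 5 of the 9 genes, as it had for 32% of all genes. The share was 12 of 22 in a list of other duct genes and 21 of 26 acinar markers, against 0 of 12 pan-endocrine genes. It was not particular to duct and acinar lists, at 14 of 21 Notch pathway genes, 19 of 32 epithelial junction and identity genes, 8 of 14 Sox genes and 11 of 21 leukocyte markers. Cell division genes (0 of 18) and endothelial markers (1 of 17) were as low as the pan-endocrine genes or nearly so. The pan-endocrine mean was 10.402 in that array against 9.95 and 9.39 in the other day 20 arrays, and the acinar mean was 13.38 against 13.603 and 13.45. With the pan-endocrine mean in the limma model, the difference was -0.59 for Cftr (adjusted p = 0.334) and 0.215 for Spp1 (0.841), against -1.11 and -0.32 without it. The pan-endocrine mean did not overlap between the ages, so that fit cannot fully separate it from age. The acinar mean was not tested as a covariate.

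Epcam and Anxa4 moved the other way, by less. Epcam, a cell adhesion protein of the lateral membrane of epithelial cells, had adult signals of 10.96, 10.92 and 10.65 and day 20 signals of 10.56, 10.49 and 10.38. It was 1.29-fold higher in adult (log2 difference 0.37, standard error 0.11, adjusted p = 0.0368). Anxa4, a calcium-dependent membrane-binding protein of secretory epithelia, had adult signals of 8.898, 8.86 and 8.79 and day 20 signals of 8.31, 8.36 and 8.65, and was 1.33-fold higher in adult (log2 difference 0.41, standard error 0.11, adjusted p = 0.0257). In both genes the lowest adult array was above the highest day 20 array, by a margin smaller than the range of the 3 day 20 arrays. Both calls were lost in 5 of the 6 fits with an array left out. That of Epcam was lost without adult replicate 1 or 2 or any 1 of the 3 day 20 arrays (adjusted p up to 0.114), and that of Anxa4 without any 1 of the 3 adult arrays or day 20 replicate 1 or 2 (up to 0.0914). Epcam also lost its call with a second quantile normalization (adjusted p = 0.0878, 22.9% of all genes called), with array weights (0.0597, 26.2%) and when all 29214 probe sets were tested (0.0675, 13.4%).

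**Figure D2:**
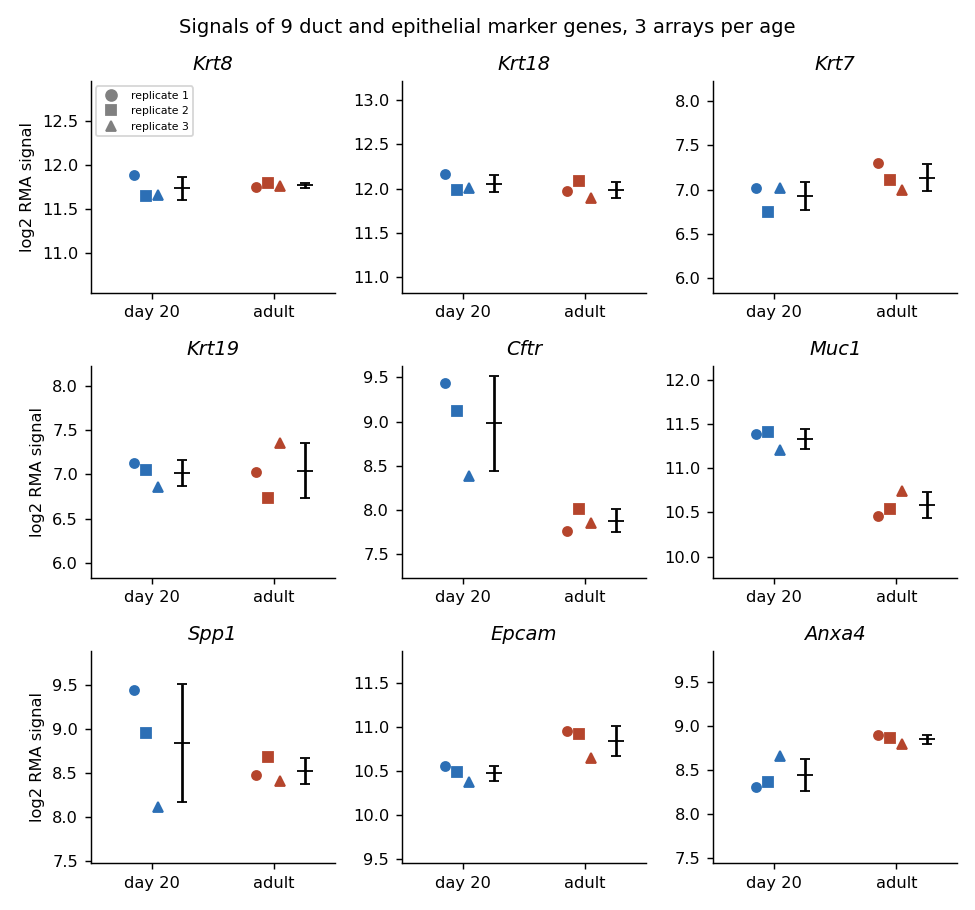
Log2 RMA signal (y axis) of each of the 9 genes on the 6 arrays, grouped by age (x axis). Circles, squares and triangles are replicates 1, 2 and 3, bars show the mean with the SD of 3 arrays, and every panel spans the same range of 2.4 log2 units. Groups are separate for Cftr, Muc1, Epcam and Anxa4, and the triangle of day 20 lies apart from its group in Cftr and Spp1.

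None of the 4 keratins passed, and the smallest of their adjusted p-values was 0.24. Krt8 (11.75, 11.80 and 11.76 in adult, 11.89, 11.65 and 11.66 at day 20) had a difference of 0.036 with a 95% interval of -0.18 to 0.25. Its partner Krt18 (11.98, 12.08 and 11.895 in adult, 12.165, 11.99 and 12.01 at day 20) had one of -0.070 with an interval of -0.28 to 0.14. On these brightest probe sets the intervals of the pair reach at most 1.22-fold. The duct keratin Krt19 had adult signals of 7.03, 6.74 and 7.36 and day 20 signals of 7.14, 7.05 and 6.86. The adult arrays enclosed those of day 20, and the interval of its difference, 0.026, ran from -0.32 to 0.37. Krt7 had adult signals of 7.30, 7.11 and 7.0001 and day 20 signals of 7.01, 6.74 and 7.02, with a difference of 0.21 and an interval of -0.050 to 0.47. The intervals of these 4 probe sets together allow a change in signal of up to 1.39-fold, which these arrays could not tell from no change. Krt19 (7.04 in adult, 7.02 at day 20) and Krt7 (7.14 and 6.93) were near Krt85 (7.12 and 7.26) and Krt33b (7.19 and 6.91). These other keratins were named after their values were seen, and means of their list were 5.61 to 5.71. Without detection calls, whether Krt7 and Krt19 stand above background is not shown, so the bound holds for their signals only.

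Krt8 and Krt18 were each on several probe sets, and the brightest one stands for the gene. The other Krt8 probe set (10907524) had means of 11.42 in adult and 11.53 at day 20, with a difference of -0.11 and a 95% interval of -0.33 to 0.11. The other Krt18 probe sets had means of 10.48 and 10.34 (10813992, difference 0.14, interval -0.070 to 0.35) and of 6.79 and 6.85 (10745345, difference -0.055, interval -0.26 to 0.15). The differences of a gene's probe sets thus varied in sign, and no probe set of either keratin passed (adjusted p at least 0.385 over all probe sets). By its number, 10907524 falls between the probe sets of the nearby genes Krt4 (10907501) and Spryd3 (10907529), whereas the brightest Krt8 probe set (10751352) does not. Keratins have near-identical copies, and which probe set follows the gene is not shown by these data.

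Signals of markers of several cell types differed by age over the same arrays. The counts below stand beside 11.8% of all genes that passed as higher and 10.9% as lower in adult. Pan-endocrine means were 10.55 to 11.24 in adult and 9.39 to 10.402 at day 20, with 9 of 12 genes higher in adult, led by Cpe (2.98-fold) and Scgn (2.72-fold), which act in prohormone processing and calcium sensing, with Pcsk2 and Scg2 the brightest. Of 17 endothelial markers 16 were lower in adult, Cav1 (5.503 against 8.71) and Emcn most and with Eng (6.45 against 7.98) also bright, and the list means of 5.68 to 5.78 in adult and 6.54 to 7.097 at day 20 did not overlap. Of 20 fibroblast and stellate markers 9 were lower and 0 higher (list means 6.09 to 6.28 in adult, 6.68 to 6.89 at day 20), led by Vim (6.97 against 9.78) and Sparc, while the bright Acta2 (10.21 against 10.415) did not pass. Of 11 markers of non-beta islet cells 6 were lower in adult, with Pyy and Ppy falling most, and the brightest were Gcg (13.35 against 14.08, not passing) and Sst (11.58 against 12.47, lower). Means of that list were 7.92 to 8.21 in adult against 8.62 to 9.18. Of 26 acinar markers 2 were higher (Cuzd1 and Gp2) and 1 lower (Ptf1a), the brightest, Ctrb1 and Cel, did not pass, and the list means overlapped, at 13.51 to 13.605 in adult and 13.38 to 13.603 at day 20. Leukocyte markers, which matter for Spp1, had 1 of 21 higher (Cd4) and 2 lower (Cd48 and the macrophage gene Cd68, at 6.94 against 7.81), while Cd74 (6.998 against 6.79) did not pass, with list means of 5.48 to 5.52 against 5.61 to 5.75. Of 18 cell division genes 17 were lower in adult, led by Rrm2 and Top2a. No marker was at 0, since array signals have no zero, and the part of these lists in the 9 genes' differences was tested only by the covariates that follow.

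When the pan-endocrine mean was added to the limma model, 0 of the 9 genes passed (1 at an unadjusted p under 0.05), and 5.33% of all genes did. Muc1 then had a difference of -0.57 (adjusted p = 0.0799), Cftr -0.59 (0.334), Anxa4 0.21 (0.547) and Epcam 0.37 (0.302). The size for Epcam was thus the same with and without it, and those for Cftr, Muc1 and Anxa4 were smaller. The pan-endocrine mean did not overlap between the ages (10.55 to 11.24 in adult, 9.39 to 10.402 at day 20), so this fit cannot fully separate it from age. With the endothelial mean in its place 0 of 9 genes and 0% of all genes passed in limma (0 of 9 and 1085 of 14506 at an unadjusted p under 0.05), and since that mean separated the ages by itself, the fit cannot tell it from age. Differences of the 4 genes kept their sign in it, at -1.01 for Cftr, -0.88 for Muc1, 0.37 for Epcam and 0.49 for Anxa4.

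**Figure D3:**
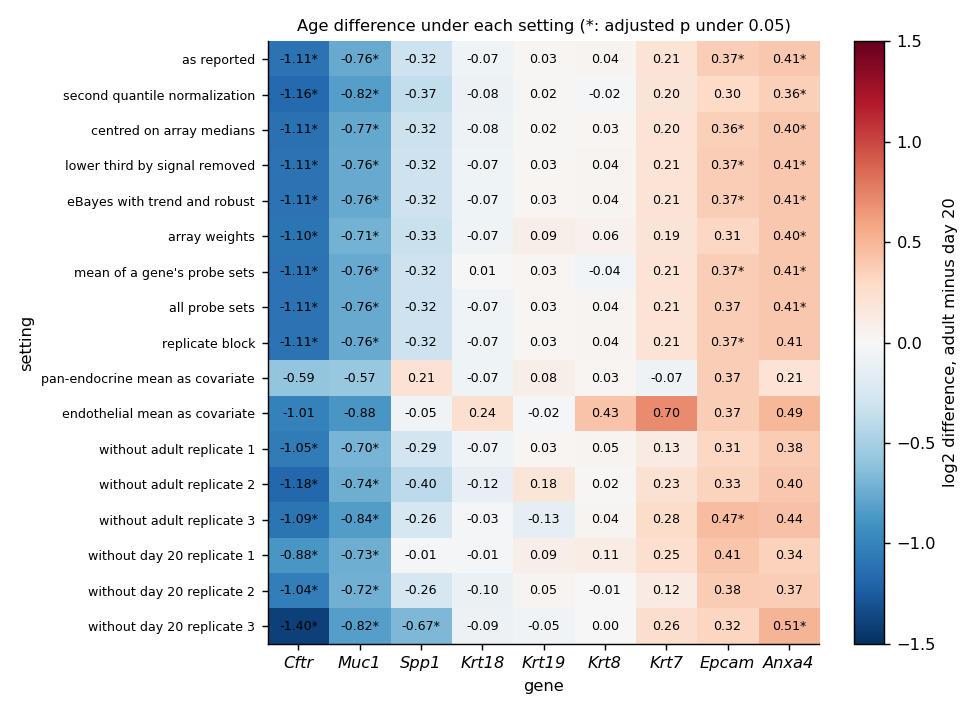
Log2 difference, adult minus day 20, of each gene (x axis) under each setting (y axis), with the value written in the cell, its colour on a scale from blue (lower in adult) to red (higher), and an asterisk for an adjusted p under 0.05. Cftr and Muc1 carry an asterisk in all settings but the 2 with a covariate, and Spp1 carries one only without day 20 replicate 3.

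Other genes of duct cells, from a separate list of 28, were also mixed. Among 22 measured, 2 rose toward adult, 4 fell and 16 did not pass, where 22.7% of all genes passed. The median difference of the list was -0.20. The largest change in either direction was the rise of Pigr, the receptor that carries immunoglobulin A across secretory epithelia, at 11.31 ± 0.16 in adult and 9.26 ± 0.11 at day 20 (n = 3), a 4.14-fold difference (adjusted p = 3.5e-05). Sctr, the receptor of the hormone secretin that drives fluid secretion by ducts, was 1.45-fold higher. Lcn2, the iron-carrier-binding protein lipocalin 2, was 2.27-fold higher at day 20 (8.05 ± 0.405 against 6.86 ± 0.15, adjusted p = 0.00266), and the water channel gene Aqp1, which endothelial cells also express, 1.52-fold. The other 2 that fell, named after their values were seen, were Clu (clusterin, difference -0.32) and Atp1b1 (a subunit of the sodium pump, -0.51). Slc4a4, the bicarbonate importer of the basal side, also named after its values were seen, had a difference of -0.48 that did not pass (adjusted p = 0.175), and its day 20 signals of 8.87, 8.77 and 7.96 were again lowest in replicate 3. Of the fluid secretion genes named here, Sctr thus rose, while Aqp1 and Atp1b1 fell as Cftr did. Further genes of the list were named after their values were seen. Car2 (-0.30), Slc4a2 (-0.23), Slc26a6 (-0.20), Aqp5 (-0.15) and Scnn1a (-0.021) had negative differences that did not pass. Slc26a3, with a low signal of 3.76 in adult and 3.70 at day 20, had one of 0.061 that did not pass.

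Genes of epithelial junctions and identity changed in both directions. Among 32 measured, 9 rose toward adult and 6 fell, where 22.7% of all genes passed. The median difference of the list was 0.072. The largest rises were those of Ocln, a tight junction protein (1.56-fold), and Itgb4, an integrin of hemidesmosomes (1.56-fold), and Cdh1 (E-cadherin; named after its values were seen) was 1.37-fold higher in adult. The largest falls were those of the claudin genes Cldn6 and Cldn4, with differences of -0.82 and -0.81. Among the other claudin genes of this list, named after their values were seen, Cldn10 rose (0.33, adjusted p = 0.0489). Cldn3 (adjusted p = 0.154) and Cldn7 (0.585) did not pass. Claudin genes of the list that passed thus went both ways, with the rise that of Cldn10 alone, close to the threshold.

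Relatives of the 9 genes had their own patterns, read beside the 22.7% of all genes that passed. Of 10 other annexins, 2 were higher in adult and 5 lower, with a median of -0.30. Anxa10 was 2.82-fold and Anxa7 1.44-fold higher in adult, whereas Anxa2 and Anxa1, which fibroblasts and endothelial cells also express, were 2.69-fold and 1.98-fold higher at day 20. The direction of Anxa4 was therefore that of 2 of its 7 relatives that passed. Of 33 other keratins 1 was higher (Krt1, at 4.90 against 4.52, at or below the first quartile of the arrays) and 1 lower (Krt20, -0.62), and 31 did not pass. Of 4 other mucins none passed, with a median of -0.0087.

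Sox9 acts in duct cells downstream of Notch signals, and with Sox9 not analysed here, its relatives and the Notch genes were read. Over all genes, 22.7% passed, 11.8% as higher and 10.9% as lower in adult. Of 14 other Sox genes 0 were higher in adult and 3 lower, namely Sox17 and Sox18, which are also endothelial markers (-0.85 and -0.45), and Sox4 (-0.42; named after its values were seen). Of 21 Notch pathway genes 1 was higher and 3 lower in adult, and 17 did not pass, with a median of -0.17. The receptor gene Notch1 was 3.25-fold higher at day 20 (8.17 ± 0.10 against 6.47 ± 0.24), Lfng, a glycosyltransferase that modifies Notch, was 1.95-fold higher at day 20, and its relative Mfng was 2.499-fold higher in adult. Dll4, a ligand gene of endothelial cells (named after its values were seen), fell by 0.64 on the log2 scale. Hes1, a Notch target, did not pass (11.76 ± 0.26 against 11.801 ± 0.11, adjusted p = 0.892). Of 11 genes of osteopontin receptors and its glycoprotein family, 2 were lower in adult, the receptor genes Cd44 (-0.41) and Itga5 (-0.42), and 9 did not pass.

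**Figure D4:**
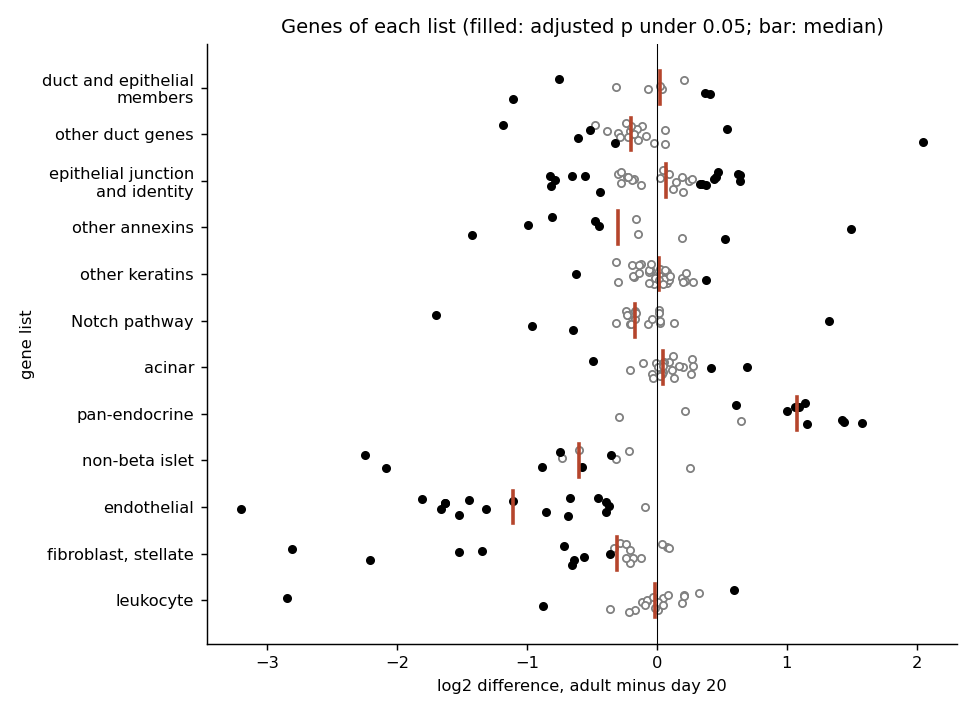
Log2 difference, adult minus day 20 (x axis), of every measured gene of each list (y axis). Filled points had an adjusted p under 0.05, and red bars are list medians, which lie at 0.026 for the 9 duct and epithelial genes, -0.20 for other duct genes, 1.08 for pan-endocrine genes and -1.11 for endothelial markers.

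Profiles over the 6 arrays were compared by the root mean square difference of log2 signals after centring each gene on its mean, among 7099 genes of a mean signal of at least 7. The genes most like Cftr were Lcn2 (0.12), Slc34a2 (0.14), a sodium and phosphate cotransporter of epithelial cells, and Sem1 (0.18), a proteasome subunit. Lcn2 (8.37, 8.17 and 7.59 at day 20) and Slc34a2 (8.52, 8.14 and 7.27) were also lowest in day 20 replicate 3 among the day 20 arrays. Lcn2 is in the list of other duct genes, and Slc34a2 is in none. The profile nearest to Krt19 was that of Hes1 (0.053), with Tmem198b (0.076) and Klhl36 (0.11) next. Both Krt19 and Hes1 were highest in adult replicate 3 and lowest in adult replicate 2 over all 6 arrays, so what they share is variation within an age. Muc1 was nearest to Gatc (0.047), Psat1 (0.055), an enzyme of serine synthesis, and Ube2s (0.056), a ubiquitin-conjugating enzyme of mitosis. Anxa4 was nearest to Capn7 (0.031), Rsu1 (0.037) and Sesn3 (0.0397), and Epcam to Vwa5a (0.024), Csk (0.039) and Abl2 (0.039). With 6 values a gene and 7099 genes searched, near matches are a description only.

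**Figure D5:**
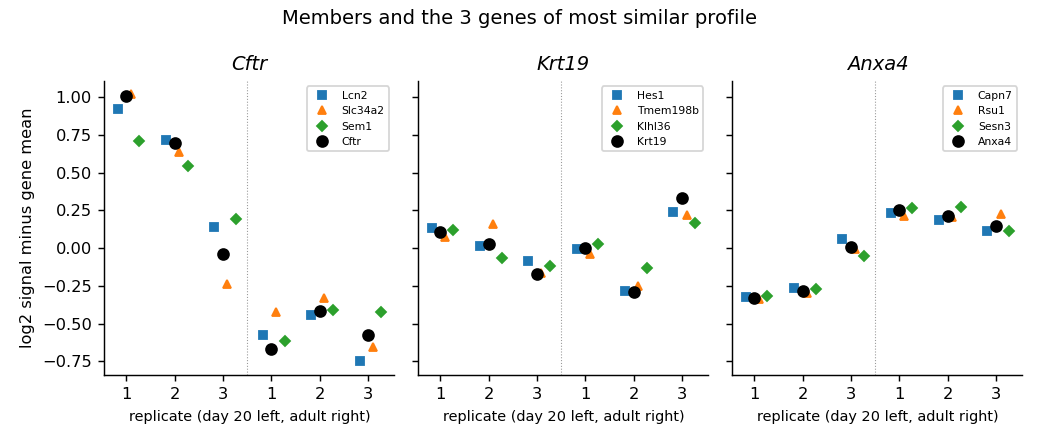
Log2 signal minus the gene's own mean (y axis) on the 6 arrays (x axis, day 20 left and adult right of the dotted line) for Cftr, Krt19 and Anxa4 (black circles) and the 3 genes of most similar profile (coloured marks, shifted sideways for sight). Day 20 values of Cftr, Lcn2 and Slc34a2 are lowest in replicate 3, and Krt19 and Hes1 are highest in adult replicate 3.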

How the data were processed

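The table of 29214 probe sets holds log2 signals that the authors made with RMA, per the submitters' processing notes. The log2 scale was taken from the values (1.73 to 14.7). The software version and the genome build were not given in the sources used here. RMA makes the arrays' distributions alike and shrinks differences at very low signals. At very high signals, saturation of the arrays can shrink them. Probe sets with 1 symbol in the platform annotation (15310; 323 had several, and 13581 were not listed) were named, with symbols updated through RefSeq by Entrez identifier (15279) or accession (6). Where a gene had several probe sets (527 genes), the brightest was used. No filter on signal was applied.

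Ages were compared in R 4.3.3 with limma 3.58.1 (lmFit, eBayes; two-sided). Adjusted p-values are those of Benjamini and Hochberg over all 14506 genes, and 0.05 was the threshold. The fit was tested on simulated data. With 3 arrays per age, their number limits the precision. Tables and figures were made with pandas 2.3.3 and matplotlib 3.10.9 under Python 3.11.15, with numpy 2.4.6. Lists (16, with 281 of 327 symbols measured) were described by counts and medians, without a set test. The members, the lists and the tests were chosen with earlier results of these data known. Named genes were all members, in each other list the 2 that rose most and the 2 that fell most among those that passed, the 2 brightest of each cell type list, and the 3 nearest profiles of Krt19, Cftr and each member that passed. Promoter sequences came from a RefSeq table of build GRCr8. Alternatives were other normalizations, variance models, probe set rules and covariates, the replicate number as a block, and each array left out.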

Additional observations from a re-analysis of the deposited data

How the results depend on the processing

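Calls over all genes numbered 3294. They moved by over 1.5 times with the pan-endocrine covariate (773), the endothelial covariate (0; 1085 at an unadjusted p under 0.05), and without day 20 replicate 2 (2159), and ranged from 2159 to 2925 with an array left out. Of the 9 members 4 were called. The count was 0 with either covariate, and 2 to 4 with an array left out. Under all other settings it was 3 or 4. The labels state no pairing by replicate number. Deviations of same-numbered arrays from their group means correlated at -0.19, 0.19 and -0.21 over 14506 genes, which with 3 arrays per age can neither show nor exclude a pairing. With the replicate number as a block 2609 genes were called over all and 3 of 9 members, Anxa4 losing its call (adjusted p = 0.0584). Differences that changed sign were these, and none passed (adjusted p at least 0.578). With the pan-endocrine covariate they were Krt7 (-0.071), Spp1 (0.215) and Tmem198b (0.11). With the endothelial covariate they were Krt18 (0.24), Krt19 (-0.020), Acta2 (0.24), Aqp1 (0.45), Hes1 (0.028) and, themselves part of that mean, Sox17 (0.47) and Sox18 (0.20). With a second quantile normalization they were Krt8 (-0.019) and Cel (-0.0087), with probe sets of a gene averaged Krt8 (-0.037) and Krt18 (0.0050), and with array weights Hes1 (0.018). With an array left out, Krt8 ranged from -0.0075 to 0.11, Krt19 from -0.13 to 0.18, Cel from -0.037 to 0.078, Ctrb1 from -0.014 to 0.11, Klhl36 from -0.029 to 0.12, Hes1 from -0.16 to 0.097 and Tmem198b from -0.17 to 0.068. Acinar signals lie close to the highest in the table, where arrays saturate, which limits what their small differences show.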

Other observations

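Neighbours of the genes in the order of the RefSeq assembly GRCr8 were read after the values were seen. Of the 5 measured genes on each side of Cftr, Lsm8 (-0.36, adjusted p = 0.0291) and Tspan12 (-0.54) were lower in adult, Capza2 was higher (0.86), and Met, which encodes the receptor of hepatocyte growth factor, had a difference of 0.022 (adjusted p = 0.90). Beside Muc1, Scamp3 (-0.40) and Clk2 (-0.32) were lower and Entrep3 was higher (0.64). Beside Anxa4, Pcyox1 was higher (0.62) and Antxr1 lower (-0.57), and beside Epcam, Ttc7a was higher (0.32). Beside Krt7, Nr4a1 (-0.79) and Acvrl1 (-0.54) were lower, beside Krt8, Krt1 was higher (0.38), and beside Krt19 none passed. Over all genes 22.7% passed. Krt8 and Krt18 are next to each other in that order, and Eif4b, the gene after Krt18, was higher in adult by 0.38 (adjusted p = 0.016).

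Beside Spp1 lie the genes of its glycoprotein family, Mepe, Ibsp, Dmp1 and Dspp, with signals of 4.57 to 4.85 as means at either age, at or below the first quartile of the arrays. The next gene, Sparcl1, which encodes a matrix protein, was lower in adult by 2.47 on the log2 scale (5.83 against 8.298, adjusted p = 0.000325).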
